A study of Mus musculus with 2 samples.

Results

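The genes described here are the matrix metalloproteinases (Mmp), the membrane-bound and secreted disintegrin metalloproteinases (Adam and Adamts) and the tissue inhibitors of metalloproteinases (Timp) of the mouse. They were chosen by symbol alone and number 80 of the 33696 features in the count matrices: 23 Mmp, 4 Timp, 34 Adam and 19 Adamts genes. In the cells kept, 70 of the 80 had at least 1 UMI (unique molecular identifier, 1 captured transcript) among primary cells and 71 among chemoresistant cells, and 7 had none in either.

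These enzymes hold a zinc ion in the catalytic site and cut proteins outside the cell or at its surface. Mmp and Adamts enzymes are best known for cutting collagen, gelatin and proteoglycans of the extracellular matrix, Adam enzymes for releasing the outer part of membrane proteins such as growth factors and cytokines, and several Adam proteins lack catalytic activity and act in adhesion. Timp proteins bind the catalytic site and block it, Timp2 also takes part in the activation of pro-Mmp2 by Mmp14, and Timp3 stays bound to the matrix and blocks several Adam and Adamts enzymes too. In ovarian tumours growing in the peritoneal cavity, matrix turnover is shared between tumour cells, fibroblasts and infiltrating leukocytes.

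The study used ID8, a mouse ovarian surface epithelial line that forms tumours in the abdomen of mice. It made 1 droplet library (10x Genomics 3′ v3) from pooled suspensions of solid tumours of treatment-naive mice, called primary here, and 1 from pooled solid tumours of mice given cisplatin, called chemoresistant. Strain, age, dose, interval and the number of animals are not given in the sources used here. Tumour pieces were minced, digested with type II collagenase and freed of erythrocytes by lysis in both groups, so levels are those after digestion. With 1 pooled library per group there is no measure of the spread between animals: no test was made, and every interval printed is a 95% exact interval that covers counting error only.

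The primary library held 14390 barcodes with 141334623 UMIs and the chemoresistant library 16390 barcodes with 158118781 UMIs. After filters and removal of likely doublets, 11485 and 13039 cells were kept, with medians of 5421 and 4128 UMIs. The libraries shared 44 cell barcodes among the cells passing the filters. Each cell was put in the class whose marker genes it carried most strongly, and no gene of the 80 served as a marker or in the clustering used to divide the classes further. Tumour epithelial and mesothelial cells form 1 class, in which the 20 markers summed to 8763 and 10256 CPM, all detected in both libraries. A class is a range of marker scores: 168 of 770 primary and 338 of 3030 chemoresistant tumour cells, and 20 of 253 and 68 of 329 fibroblasts, led the next class by less than 0.1 where 0.05 was required, and 759 and 958 cells had no class. The other classes compared held 2841 and 3880 mononuclear phagocytes, 1327 and 636 neutrophils, 838 and 875 dendritic cells, 3130 and 2784 B-lineage cells and 1014 and 285 T or NK cells in the primary and chemoresistant library. Levels are UMIs per 1000000 UMIs of the class (CPM). The kit counts the 3′ end of each transcript, so no division by gene length was made, and levels of different genes are not ranked against each other.

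Of the 23 Mmp genes, 10 lie side by side on chromosome 9, between positions 7272514 and 7699585 of GRCm38.p6 in RefSeq, a stretch of 427 kb that holds 10 protein-coding genes, all of them Mmp genes: Mmp13, Mmp12, Mmp1b, Mmp3, Mmp1a, Mmp10, Mmp8, Mmp27, Mmp20 and Mmp7. The 120 bases before the start of the members that the results below turn on are printed because these neighbours were counted in different cells. Capitals mark TGANTCA, the core of the AP-1 motif, and TATAAA, the letters of the TATA box, each searched on either strand. Mmp12 has 2 starts in RefSeq.
Mmp13, chr9:7272394-7272513, + strand: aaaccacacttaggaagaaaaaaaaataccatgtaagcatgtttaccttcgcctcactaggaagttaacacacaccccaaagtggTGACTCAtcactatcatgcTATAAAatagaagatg
Mmp12, chr9:7344277-7344396, + strand: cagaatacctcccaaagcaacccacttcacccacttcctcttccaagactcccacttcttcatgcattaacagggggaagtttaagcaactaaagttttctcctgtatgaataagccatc
Mmp12, chr9:7347254-7347373, + strand: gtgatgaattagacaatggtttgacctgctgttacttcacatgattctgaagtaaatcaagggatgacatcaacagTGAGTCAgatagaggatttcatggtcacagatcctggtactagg
Mmp3, chr9:7445702-7445821, + strand: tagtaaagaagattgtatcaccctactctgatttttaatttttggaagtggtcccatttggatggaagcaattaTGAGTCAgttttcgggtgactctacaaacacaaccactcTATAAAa
Mmp10, chr9:7502222-7502341, + strand: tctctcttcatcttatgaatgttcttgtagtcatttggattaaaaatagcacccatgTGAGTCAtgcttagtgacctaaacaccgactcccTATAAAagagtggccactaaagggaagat
Mmp8, chr9:7558309-7558428, + strand: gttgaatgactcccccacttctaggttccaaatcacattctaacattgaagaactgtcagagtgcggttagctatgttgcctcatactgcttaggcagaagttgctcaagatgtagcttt

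The AP-1 letters began 35 bases before the start of Mmp13, 44 before the downstream start of Mmp12, 46 before that of Mmp3 and 63 before that of Mmp10. They were not found in the 250 bases before the start of Mmp8. RefSeq promoters matched 50 of the 80 genes by symbol. Each motif was searched on either strand and at any position within 250 bases before a start. TGANTCA was found in 12 of these 50 (24%) and in 7.82% of all 27025 genes with a promoter listed. Most of the 12 lie in the chromosome 9 group: Mmp1a, Mmp1b, Mmp3, Mmp7, Mmp10, Mmp12, Mmp13 and Mmp20. The rest were Adam19, Adam20, Adam25 and Adam29. TATAAA was found in 24% against 14.3%, and GGGCGG, the GC box bound by Sp1, in 40% against 35.4%. The 3 motifs were searched separately, and the same gene can hold several. Mmp1a, Mmp1b, Mmp3, Mmp7, Mmp10, Mmp13, Mmp20 and Adam29 held both AP-1 and TATA letters. The GC box, on either strand, stood before Timp1, Timp2 and Timp3, and neither AP-1 nor TATA letters did. A match in letters is a description and says nothing of binding.

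Across cell classes, 34 of the 80 genes reached 20 CPM in at least 1 class of 100 cells or more. Highest and next classes, here and below, are named among classes of that size. Of the 34 genes, 20 in the primary and 15 in the chemoresistant library were highest in fibroblasts, while phagocytes held the highest level of 5 and 4, neutrophils of 4 and 3, dendritic cells of 2 and 6, T or NK cells of 2 and 3 and tumour cells of 1 and 3. The interval of the highest class lay above that of the next class for 30 of 34 genes in the primary library and for 24 of 34 in the chemoresistant library. Neither these counts nor those of the highest class were made over all genes, so they have no background. The heat map of levels shows the separate blocks of stromal, neutrophil, phagocyte, dendritic and lymphocyte genes.

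**Figure D1:**
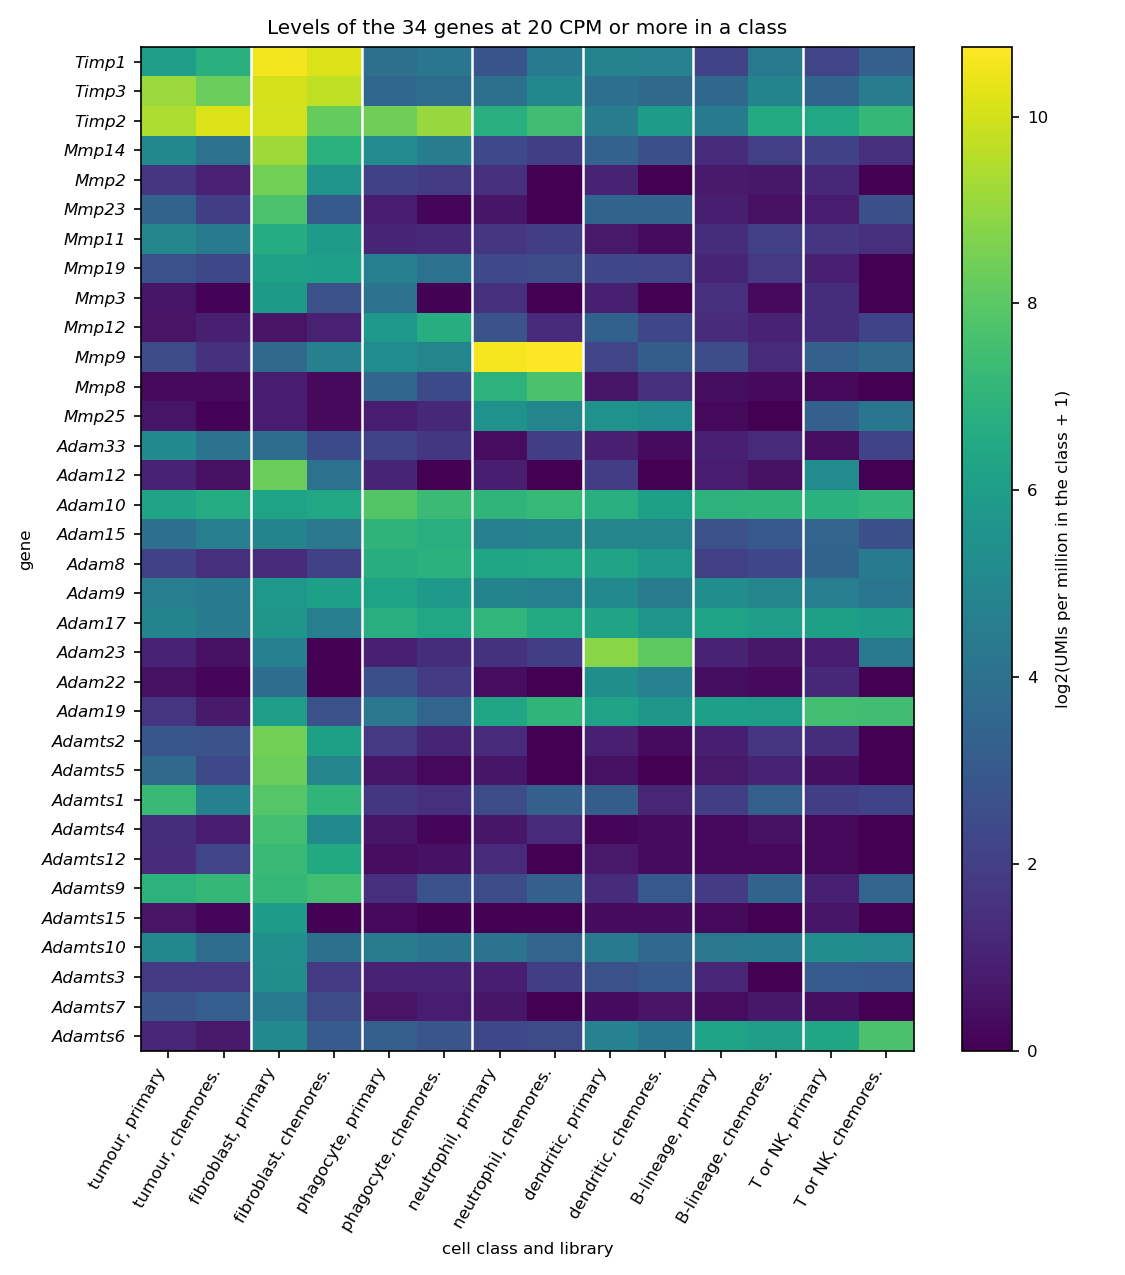
Levels of the 34 genes that reached 20 CPM in a class, as log2(CPM + 1) in colour, with genes in rows and the 7 cell classes of each library in columns. Most Adamts genes and Mmp14 and Mmp2 are brightest in the fibroblast columns, Mmp9 and Mmp8 in the neutrophil columns, Adam23 in the dendritic columns and Adam19 in the T or NK columns.

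Among classes of 100 cells or more, Timp1 and Timp3 were highest in fibroblasts and next in tumour cells in both libraries. Timp2 was spread more widely. Timp1 stood at 1491 (1453 to 1529) CPM in primary and 1153 (1124 to 1183) in chemoresistant fibroblasts, against 64.6 and 113 in tumour cells, the next class. Timp3 was at 1073 and 845 CPM in fibroblasts and at 556 and 308 in tumour cells, and at no more than 31.1 in the leukocyte classes compared. Timp2 was the Timp gene with the widest reach: it was highest in fibroblasts in the primary library (1022 CPM) and in tumour cells in the chemoresistant library (1157 CPM), where fibroblasts held 298 and the erythroid class, next after tumour cells, 626. Phagocytes held Timp2 at 338 and 548 CPM. Timp4 was near 0 in all 7 classes, with at most 0.752 CPM, but reached 91.5 (70.3 to 117) CPM in the 80 endothelial cells of the primary library.

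Among classes of 100 cells or more, Mmp14, Mmp2 and 10 further enzymes were highest in fibroblasts in both libraries. The 4 collagenases of the secreted type (Mmp1a, Mmp1b, Mmp8 and Mmp13) did not pass the 5 CPM filter in fibroblasts. Mmp14, a membrane-bound collagenase that activates pro-Mmp2, was at 598 (575 to 623) and 117 (108 to 127) CPM in fibroblasts, with phagocytes next at 35.6 and 22.7. Mmp2, gelatinase A, was at 347 and 47.9 CPM in fibroblasts and at no more than 5.39 CPM in any other class of 100 cells or more. Mmp11, Mmp19, Mmp3, Adamts1, Adamts2, Adamts4, Adamts5, Adamts9, Adamts12 and Adam12 were the other 10. Adamts2 cleaves the amino-terminal propeptide of fibrillar procollagen, and its level was 346 and 67.6 CPM in fibroblasts against 6.30 and 5.70 in tumour cells. Mmp23, Adamts3, Adamts7, Adamts10 and Adamts15 were highest in fibroblasts in the primary library and in another class in the chemoresistant library. In the chemoresistant library the intervals of the highest and the next class overlapped for Mmp23, Adamts3, Adamts10 and Adamts15. Mmp23 was there at 9.81 CPM in dendritic cells against 7.23 in fibroblasts, and Adamts15 at no more than 0.245 CPM. Adam33 was highest in tumour cells in both, at 34.6 and 15.95 CPM.

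Mmp9 and Mmp8 were highest in neutrophils in both libraries. In the primary library the next class was the 118 pancreatic acinar cells, with Mmp9 at 217 (180 to 260) and Mmp8 at 16.2 CPM. In the chemoresistant library it was phagocytes, at 28.6 and 4.28 CPM. Mmp9, gelatinase B, which neutrophils store in granules, was at 1569 (1528 to 1611) CPM in primary and 1715 (1618 to 1817) in chemoresistant neutrophils, while B-lineage cells were at 4.77 and 1.44. The share of neutrophils with an Mmp9 UMI was 81.4% (79.2 to 83.4) and 73.7% (70.1 to 77.1), at median depths of 2414 and 896.5 UMIs. After every cell was thinned to 1000 UMIs the shares were 69.1% (66.5 to 71.7) and 74.7% (68.6 to 80.1), with 61 primary and 403 chemoresistant neutrophils too shallow to enter. In B-lineage cells, a class that should lack the gene, with medians of 4380.5 and 1500 UMIs, the thinned shares were 0.515% (0.295 to 0.835) and 0.175% (0.0476 to 0.447). Mmp8, neutrophil collagenase, was at 121 and 199.8 CPM in neutrophils. Mmp25 was at 43.8 and 29.6 CPM there and at 43.1 and 36.8 in dendritic cells, with overlapping intervals.

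Neutrophils were not uniform. In the primary library, cluster 3, with 1148 neutrophils, held Mmp9 at 1908 (1857 to 1959) CPM, and cluster 21, with 168 neutrophils led by Cd274, Il1a and Gbp5, held 171 (137 to 212). Adam17, the enzyme that releases tumour necrosis factor from the membrane, had the opposite order, at 305 (259 to 357) CPM in cluster 21 and 109.9 (98.1 to 123) in cluster 3. The intervals of the clusters did not overlap for either gene. Chemoresistant cells of cluster 3 held Mmp9 at 1950.4 CPM, and cluster 21 held 28 chemoresistant neutrophils, under the 30 cells set for a level.

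Adam23, which has no catalytic activity and binds integrins, was concentrated in dendritic cells, at 449.8 (435 to 465) CPM in the primary and 267 (251 to 283) in the chemoresistant library. The next class was at 24.6 CPM in the primary library (fibroblasts) and at 19.2 in the chemoresistant library (T or NK cells, 11 UMIs). Thinned to 1000 UMIs, 24.2% (21.4 to 27.3) of primary and 19.6% (16.96 to 22.5) of chemoresistant dendritic cells had an Adam23 UMI, against 0.193% (0.0709 to 0.420) and 0.0437% (0.00111 to 0.243) of B-lineage cells, and without thinning 48.3% (44.9 to 51.8) and 38.5% (35.3 to 41.8) of dendritic cells did, at median depths of 8608 and 4347 UMIs. Within the class, the level was highest in cluster 18, led by Fscn1, Ccr7 and Ccl22, genes of migratory dendritic cells, and lowest of the 3 main clusters in cluster 20, led by Clec9a and Xcr1, genes of type 1 dendritic cells. Mmp25, a membrane-type Mmp, was at 183 and 127 CPM in cluster 18 and at 5.65 and 3.51 in cluster 13, led by Cd209a and Clec10a. Mmp7, matrilysin, was low everywhere but stood at 15.2 and 17.97 CPM in cluster 18, and Adam22, a catalytically inactive relative of Adam23, was also highest in dendritic cells, at 39.8 and 26.001 CPM. Mmp7, and the cluster values in this paragraph, were picked out after their values were seen.

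The main shedding enzymes were broad. Adam10, which cleaves Notch receptors and many other membrane proteins, lay between 73.2 CPM in fibroblasts and 236 in phagocytes in the primary library and between 67.7 in dendritic cells and 159 in phagocytes in the chemoresistant library. Adam17 was highest in neutrophils at 133 and 94.7 CPM and lowest of the 7 classes in tumour cells at 27.7 and 21.1. Adam8 and Adam15 were highest in phagocytes, Adam8 at 102 and 114 CPM and Adam15 at 127 and 109.6. Adam9 was at 74.6 CPM in primary phagocytes and at 65.7 in chemoresistant fibroblasts, the highest class in each, and the interval overlapped that of the next class in both libraries. Adam19 was highest in T or NK cells, at 176 (165 to 188) and 174 (142 to 212) CPM, where the chemoresistant interval overlapped that of neutrophils. Adamts6 was highest there too, at 82.3 and 199 CPM, with B-lineage cells at 73.7 and 61.9 and overlapping intervals in the primary library. The intervals of the highest and the next class also overlapped for Adam10 and Adam17 in the chemoresistant library.

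Classes too small to compare between libraries added a few high values in the primary library. The 80 endothelial cells held Adamts9 at 835 (768 to 906) CPM and Adamts1 at 581 (526 to 641), both proteoglycan-cutting Adamts enzymes, and Timp3 at 1322. Primary fibroblasts held less of each, at 141, 236 and 1073 CPM in the same order. The 34 plasmacytoid dendritic cells held Adam11 at 108 (73.8 to 152) CPM. The 29 pericytes held Adamts2 at 436 and Adamts4 at 391 CPM, against 346 and 180 in primary fibroblasts. These were picked out after their values were seen.

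Between the libraries, a gene was compared in a class when its mean was at least 5 CPM, and called higher or lower when log2((chemoresistant CPM + 5)/(primary CPM + 5)) was past 1.5-fold. These log2 values understate the change of low genes. The plot of differences shows all 7 classes. 

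**Figure D2:**
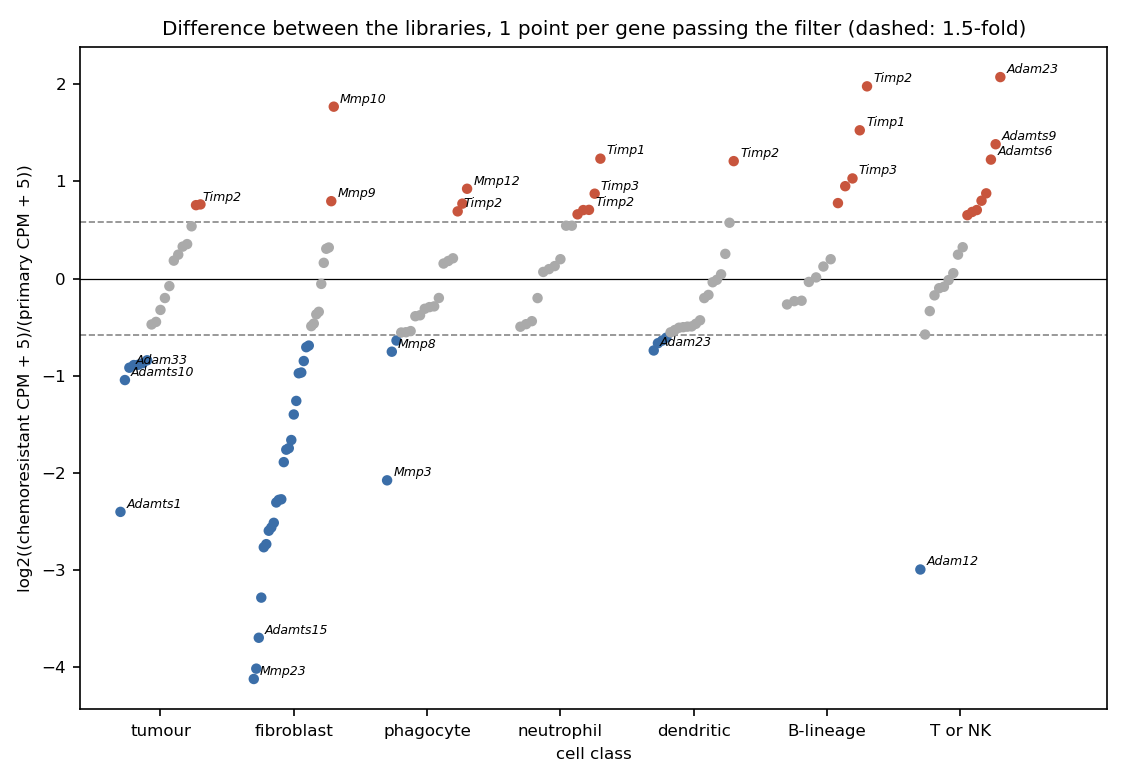
Log2 ratio of chemoresistant over primary levels, with 5 CPM added, for each gene passing the filter in each class; red points are at least 1.5-fold higher, blue points at least 1.5-fold lower and grey points between, and the largest are named. Fibroblasts carry the longest run of lower genes, and points for genes at 0 in 1 library depend on the 5 CPM added.

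In tumour cells the inhibitors split. Within clusters, Timp1 was higher and Timp3 lower in the chemoresistant library, Timp2 differed in direction, and Adamts1 was lower in clusters 9 and 10 and overlapped in cluster 2. The tumour classes of the libraries were made of different clusters, and the values by cluster number differ from those of the class. Cluster 9, led by Cxcl1, Atf3, Fosb, Fos and Jun, immediate-early response genes among them, held 52.3% (48.7 to 55.9) of primary and 9.11% (8.11 to 10.2) of chemoresistant tumour cells, and cluster 2, led by H2-Aa, Pkhd1l1 and Fxyd3, held 23.1% (20.2 to 26.3) and 57.0% (55.2 to 58.8). Clusters 19 and 22 held 8.48% and 7.62% of the chemoresistant class and 0.26% and 0% of the primary one. The 10 leading genes of cluster 22 held 1 dendritic and no tumour marker, and those of clusters 2, 9, 10 and 19 held no tumour marker either. H2-Aa and Cd74, among the leading genes of cluster 2 within the tumour class, are also on the dendritic marker list. Adamts1 was at 224 (217 to 231) CPM in primary and 189 (177 to 201) in chemoresistant cells of cluster 9, and at 6.72 and 7.15 in those of cluster 2, where the intervals overlapped. In cluster 10, the cycling cells led by Top2a and Cenpf, it was at 134 (122 to 147) and 21.9 (18.96 to 25.2) CPM. Weighting clusters 2, 9 and 10 equally gave a log2 ratio of -0.70 for Adamts1, 1.08 for Timp1, 0.35 for Timp2, -0.50 for Timp3 and -0.11 for Adamts5, so that Timp2, Timp3 and Adamts5 were within 1.5-fold; this alternative was chosen after seeing the data.

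**Figure D3:**
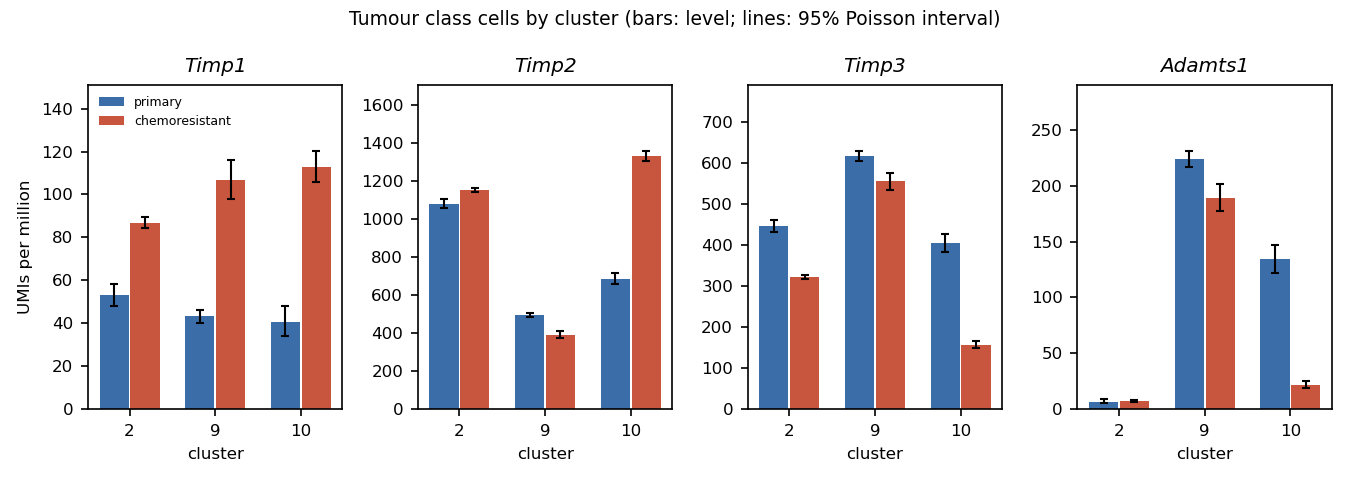
Levels of Timp1, Timp2, Timp3 and Adamts1 in CPM (bars, from 0) in tumour class cells of clusters 2, 9 and 10, for the primary (blue) and chemoresistant (red) library, with 95% Poisson intervals of counting error as lines. Timp1 is higher and Timp3 lower in the chemoresistant cells of all 3 clusters, Timp2 differs in direction between clusters, and Adamts1 is near 7 in cluster 2 of both libraries.

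The Timp genes differed in how far their direction held within clusters. Timp1 was higher in the chemoresistant cells of clusters 2 (53.1 and 86.9 CPM), 9 (43.2 and 107) and 10 (40.6 and 113), with no overlap of intervals. Timp3 was lower in the chemoresistant cells of the same 3 clusters, at 445 and 322, 617 and 555, and 405 and 157 CPM. Timp2 was lower in cluster 9 (493 and 391 CPM), close in cluster 2 (1080.2 and 1153) and higher in cluster 10 (686 and 1330.01). Mmp23 in the tumour class lay in the cells of cluster 15, with 167 CPM in the 53 primary cells against 2.49 to 4.07 in clusters 2, 10 and 9, and cluster 15 is led by collagen genes such as Col1a2 and Col3a1. The fibroblast marker list in the tumour class summed to 981 and 606 CPM, with 15 of 15 markers detected in both libraries, and without the cells of cluster 15 the log2 ratio was -0.17 for Mmp23, -0.64 for Mmp14, -0.80 for Adamts5 and 1.22 for Timp1.

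Over the tumour class as a whole, Timp1 and Timp2 were higher and Timp3 lower in the chemoresistant library. Of 19 genes compared, 2 were higher, against 4.34% of all 10596 genes, and 7 were lower, against 10.1%. The median log2 ratio was -0.32 over the 19 genes and -0.12 over all genes. Timp1 was at 64.6 (61.8 to 67.5) CPM in the primary and 113 (111 to 115) in the chemoresistant library (log2 ratio 0.76). Timp2 was at 683 (674 to 692) and 1157 (1149 to 1164) CPM (0.76), and Timp3 at 556 (547 to 564) and 308 (304 to 312) CPM (-0.84). The lower genes besides Timp3 were Adamts1 (155 and 25.3 CPM, log2 ratio -2.40), Adamts10 (-1.05), Adam33 (-0.92), Adamts5 (-0.89), Mmp23 (-0.89) and Mmp14 (-0.87). The share of tumour cells with an Adamts1 UMI was 55.5% (51.9 to 59.003) and 20.03% (18.6 to 21.5), and 11.9% (9.73 to 14.5) and 2.64% (2.10 to 3.29) after thinning, at median depths of 35487.5 and 20592.5 UMIs, against thinned shares of 0.451% (0.247 to 0.755) and 0.262% (0.0962 to 0.569) in B-lineage cells. With cells weighted equally the log2 ratios of Timp1 (0.48), Adam33 (-0.56) and Adamts5 (-0.53) were within 1.5-fold, and so was that of Adamts10 after thinning (-0.54). Without cells of clusters 22, 23 and 30 there were 2 higher and 8 lower.

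Mmp10, a stromelysin of the chromosome 9 group, was under the 5 CPM limit in the tumour class and is given because its value stood out after the data were seen. It was at 1.00 CPM in primary and 6.77 in chemoresistant tumour cells, and at 34.5 (30.2 to 39.2) in the 231 chemoresistant cells of cluster 22. In cluster 9 it was at 1.59 (1.07 to 2.29) and 12.9 (9.99 to 16.4) CPM. Mmp24 was also highest in cluster 22, at 29.7 CPM. Mmp3, which like Mmp10 has AP-1 and TATA letters before its start, had 16 UMIs in primary and 5 in chemoresistant tumour cells.

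In fibroblasts most of the matrix enzymes were lower in the chemoresistant library, and the comparison is one of different cells. Of 33 genes compared, 23 were lower, against 25.4% of all 10887 genes, and 2 were higher, against 10.2%. The median log2 ratio was -1.40 over the 33 genes, with or without the genes at 0 in 1 library set at their bound, and -0.20 over all genes. Cluster 15 held 252 of the 253 primary fibroblasts, and cluster 17, led by Spp1, Ero1a and Vegfa, held 311 of the 329 chemoresistant ones. The fibroblast markers summed to 20351 and 7866 CPM, with 15 and 12 of 15 markers at 10 CPM or more. Col1a1 was at 3104 and 2508 CPM in the libraries, Dcn at 5246 and 1320, Pdgfra at 338 and 75.8, Dpt at 256 and 5.67 and Fbln1 at 196 and 4.69.

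By class, the largest differences were in Mmp23 (208 and 7.23 CPM, log2 ratio -4.12), Adam12 (319 and 15.04, -4.02), Adamts15 (-3.70) and Adamts5, an aggrecan-cutting enzyme (326 and 28.9, -3.29). Adam19 (-2.77), Mmp2 (-2.73), Mmp3 (-2.60) and Adam23 (-2.56) came next. Adamts3 (-2.52), Mmp14 (-2.31), Adamts4 (-2.28) and Adamts2 (-2.27) followed. Of the 152 Adamts3 UMIs in primary fibroblasts, 83 came from 1 cell. Of the 80 genes, 13 had UMIs in primary and none in chemoresistant fibroblasts, and 4 of these passed the 5 CPM filter. The same count was not made over all genes, so it has no background. No UMI allows up to 0.586 CPM (3 UMIs): Adamts15 was at least 102-fold lower, Adam23 at least 41.9-fold, Adam22 at least 23.1-fold and Mmp16 at least 20.1-fold. The inhibitors Timp1 (log2 ratio -0.37) and Timp3 (-0.34) were within 1.5-fold, and Timp2 was lower (-1.76). Mmp9 (12.3 and 25.01 CPM) and Mmp10 (0.251 and 12.9) were the genes called higher. Of the 49 Mmp9 UMIs in primary fibroblasts 17 came from 1 cell, and Mmp9 was within 1.5-fold with Scrublet's own threshold (0.27), no doublets removed (0.19), cells weighted equally (0.15) and classes from clusters (0.51). Among the lower genes, Adamts12 (-0.49) and Mmp11 (-0.51) were within 1.5-fold when centred on the median gene, Adamts12 with cells weighted equally (-0.56), Mmp11 with classes from clusters (-0.50) and Adam17 after thinning (-0.50), and Adamts3 changed sign after thinning (0.42).

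The 18 chemoresistant fibroblasts of cluster 15, with 180879 UMIs, allowed a look at the same cluster in both libraries. They are under the 30 cells set for a level by cluster elsewhere. Mmp2 was at 348 (329.6 to 367) CPM in primary and 276 (205 to 364) in chemoresistant cells of cluster 15, and at 39.5 (34.1 to 45.4) in cluster 17. Mmp23 was at 209 (195 to 223) and 177 (121 to 249.8) CPM in cluster 15 and at 1.01 (0.329 to 2.36) in cluster 17. For both genes the intervals of cluster 15 overlapped between the libraries, and cluster 17 lay far below. Mmp14, Adam12 and Adamts5 were lower in the chemoresistant cells of cluster 15 and lower still in cluster 17. In the same order, Mmp14 was at 599.7 (576 to 624), 259.8 (191 to 346) and 112 (103 to 122) CPM. Adam12 was at 320.1 (303 to 338), 205 (144 to 282) and 8.10 (5.79 to 11.03), and Adamts5 at 326 (309 to 345), 127 (80.6 to 191) and 25.3 (21.1 to 30.2). Timp1 went the other way within cluster 15, at 1493 (1456 to 1532) and 4727 (4415 to 5055) CPM, and so did Timp3, at 1074 (1042 to 1107) and 3074 (2824 to 3340.3). Of the 33 genes, 4 were higher in the chemoresistant cells of cluster 15 with no overlap of intervals (Timp1, Timp3, Adam15 and Adamts6), 11 were lower and 18 overlapped. Adam15 and Adamts6 rested on 13 and 14 UMIs in these 18 cells, Timp1 and Timp3 on 855 and 556. The same counts were not made over all genes, so these have no background. Adam19, lower over the class, was among the overlapping genes, at 65.1 (57.4 to 73.5) and 71.9 (38.3 to 123) CPM. Library and cluster cannot be told apart for the class as a whole.

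**Figure D4:**
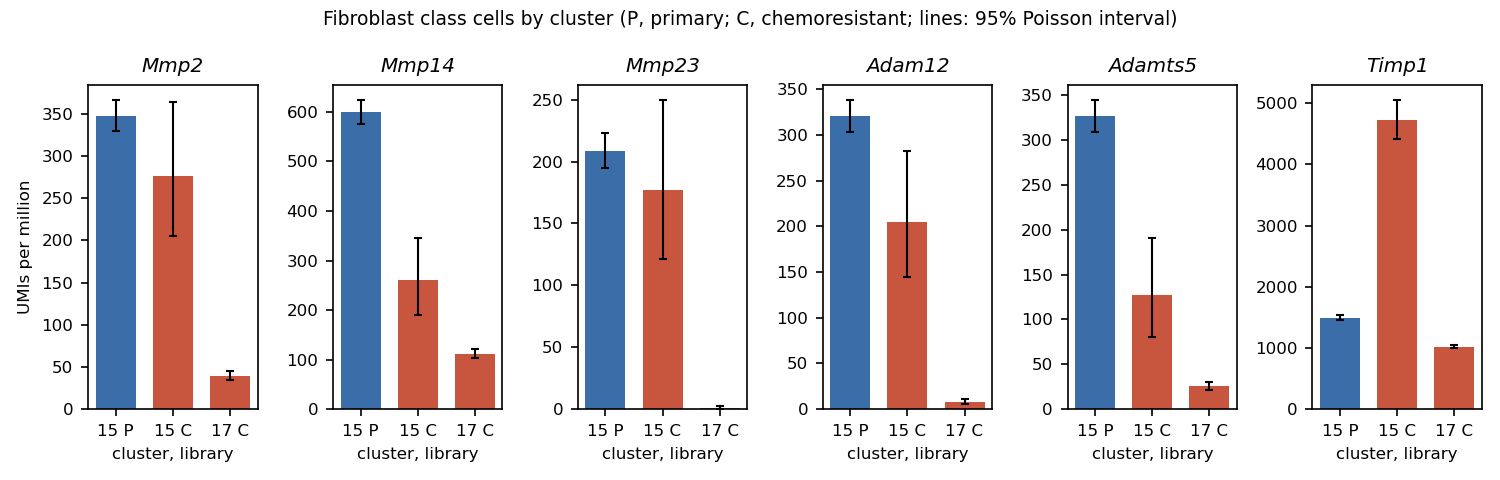
Levels of Mmp2, Mmp14, Mmp23, Adam12, Adamts5 and Timp1 in CPM (bars, from 0) in fibroblast class cells of cluster 15 of the primary library (252 cells), cluster 15 of the chemoresistant library (18 cells) and cluster 17 of the chemoresistant library (311 cells), with 95% Poisson intervals as lines. The enzymes are lowest in cluster 17, and Timp1 is highest in the chemoresistant cells of cluster 15.

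In phagocytes, Mmp12, the macrophage metalloelastase, and Mmp13, a collagenase, had most of their UMIs in 1 cluster and were higher there in the chemoresistant library. Cluster 8, led by Il1b, Cxcl2, Ccl4 and Tnf, held 87.7% of the Mmp12 UMIs of primary phagocytes and 96.6% of those of chemoresistant phagocytes, though only 58 of its 237 primary and 177 of its 548 chemoresistant cells had one. Its level of Mmp12 was 561 (533 to 591) CPM in primary and 802 (770.3 to 835) in chemoresistant cells, while cluster 1 was at 5.72 and 5.22. In cluster 8, 3 primary cells held 509 of the 1450 Mmp12 UMIs, and 3 chemoresistant cells held 422 of the 2396. The cluster made up 8.34% (7.35 to 9.42) of primary and 14.1% (13.04 to 15.3) of chemoresistant phagocytes. Mmp13 was at 29.04 (22.8 to 36.4) and 67.3 (58.3 to 77.3) CPM there, and the cluster held 72.1% (62.5 to 80.5) of its primary and 91.4% (86.8 to 94.7) of its chemoresistant phagocyte UMIs. These lay in 16 primary cells, 3 of which held 39 of the 75 UMIs, and 46 chemoresistant cells. Mmp14 had the opposite direction in cluster 8, at 168 (153 to 185) and 66.9 (57.99 to 76.9) CPM, and so did Mmp8, at 88.3 and 12.7. The neutrophil markers summed to 479.6 and 409 CPM in the phagocyte class, with 13 of 13 detected in both libraries, and their part in the Mmp8 values was not tested.

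**Figure D5:**
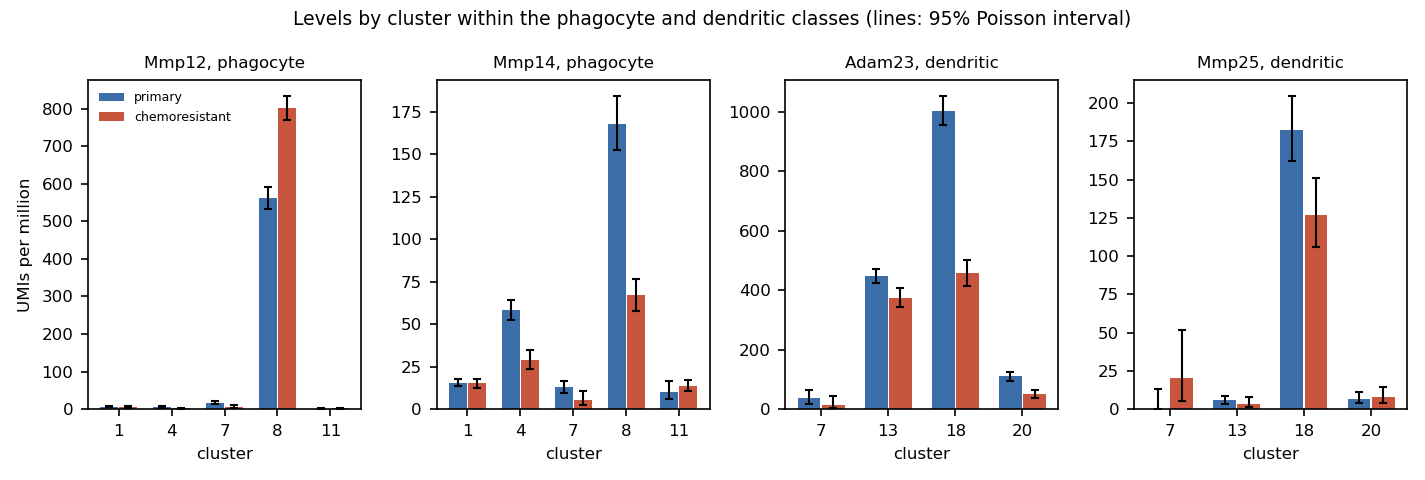
Levels in CPM (bars, from 0) of Mmp12 and Mmp14 in phagocyte clusters 1, 4, 7, 8 and 11 and of Adam23 and Mmp25 in dendritic clusters 7, 13, 18 and 20, for the primary (blue) and chemoresistant (red) library, with 95% Poisson intervals as lines. Mmp12 is high only in cluster 8 of the clusters drawn, Mmp14 is lower in the chemoresistant cells of cluster 8, and Adam23 and Mmp25 are highest in cluster 18 of both libraries.

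Over the phagocyte class as a whole, Mmp12 was at 51.5 (49.004 to 53.997) and 102 (98.1 to 106) CPM (log2 ratio 0.92) in the primary and chemoresistant library. Of 18 genes compared, 3 were higher, against 1.86% of all 9884 genes, and 3 were lower, against 7.16%. Over the 18 genes the median log2 ratio was -0.30, and over all genes -0.22. Mmp13, a collagenase next to Mmp12 on chromosome 9, was at 3.24 and 9.05 CPM (0.77), and Timp2 at 338 and 548 (0.69). Lower were Mmp8 (10.6 and 4.28 CPM, -0.75), Adam19 (18.9 and 10.3, -0.64) and Mmp3 (16.3 and 0.0412 on 1 UMI, -2.08). The clusters 23 and 30 of this class carry more markers of other classes than of their own among their 10 leading genes, and without their cells the counts were again 3 and 3. With the 6 shared clusters weighted equally, the log2 ratio of Mmp12 was 0.46 and that of Timp2 0.50, both within 1.5-fold. Mmp12 was also within 1.5-fold with Scrublet's own doublet threshold (0.40) and with no doublets removed (0.30). After thinning Mmp13 (0.03), Timp2 (0.55), Mmp8 (-0.28) and Adam19 (-0.53) were within 1.5-fold, and centred on the median gene so were Mmp8 (-0.53) and Adam19 (-0.42).

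The Mmp3 difference in phagocytes lay in 1 cell. Of the 523 Mmp3 UMIs in primary phagocytes, 479 (91.6%, 88.9 to 93.8) were in a single cell of cluster 15, the cluster of primary fibroblasts, and the whole primary library held 838 Mmp3 UMIs. Without the cells of cluster 15 the log2 ratio was -0.34. Primary fibroblasts of cluster 15 had 228 Mmp3 UMIs in 27 of 252 cells. Mmp9 was at 312 (275 to 353) CPM in cluster 28, 92 primary cells led by Ccl8, Cd209f and Cd163 with no chemoresistant counterpart, against 36.05 over all primary phagocytes.

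In neutrophils 5 of 15 genes compared were higher in the chemoresistant library, against 13.2% of all 10170 genes, and 0 were lower, against 13.3%. These counts are descriptions with no test. The median log2 ratio was 0.20 over the 15 genes and -0.03 over all genes. Mmp8 was at 121 (109 to 133) and 199.8 (167 to 236) CPM (0.70), Adam19 at 80.5 (71.4 to 90.4) and 130.2 (104 to 160.4) (0.66), and Mmp9 was within 1.5-fold. Timp1 (5.93 and 20.7 CPM, 21 and 14 UMIs), Timp2 (106 and 176 CPM) and Timp3 (14.7 and 31.1 CPM) were higher as well. Adam19 was within 1.5-fold with no doublets removed (0.53), after thinning (0.42) and with cells weighted equally (0.53). The chemoresistant neutrophils held 675830 UMIs in all.

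Dendritic cells had Adam23 lower in the chemoresistant library (log2 ratio -0.74). Of 20 genes compared, 4 were lower, against 10.4% of all 10033 genes, and 1 was higher, against 2.72%. Over the 20 genes the median log2 ratio was -0.48, and over all genes -0.21. Adam23 was lower in chemoresistant cells in each of the 3 main clusters, at 1003 (954 to 1054) and 456 (415 to 500.03) CPM in cluster 18, 447 (425 to 470.1) and 373 (342 to 406) in cluster 13 and 109.9 (96.004 to 125) and 49.9 (38.3 to 63.8) in cluster 20. Adam10 (108 and 67.7 CPM, -0.64), Adam17 (76.7 and 48.6, -0.61) and Mmp12 (9.16 and 3.92, -0.67) were lower as well. Timp2 alone was called higher (22.6 and 58.9 CPM, 1.21). Relative to the median gene of the class none of the 4 lower calls was past 1.5-fold, and with cells weighted equally none was either (Adam23 -0.54, Adam10 -0.47, Adam17 -0.58 and Mmp12 -0.56).

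In B-lineage cells 5 of 12 genes compared were higher, against 7.6% of all 10096 genes, and 0 were lower, against 7.03%. Over the 12 genes the median log2 ratio was 0.16, and over all genes 0.01. The 5 were Timp2 (20.2 and 94.2 CPM, 1.98), Timp1 (3.43 and 19.3, 1.53), Timp3 (11.2 and 28.1, 1.03), Adamts9 (2.79 and 10.1, 0.95) and Adamts1 (2.95 and 8.62, 0.78). Cluster 0, led by Lgals7, S100a6 and Defa24, made up 82.3% of the class among chemoresistant and 3.67% among primary cells. Timp2 was higher in the chemoresistant cells of the other 3 shared clusters too, at 19.2 (15.8 to 23.001) and 105 (81.6 to 134) CPM in cluster 5, 24.02 (20.3 to 28.2) and 73.8 (40.3 to 124) in cluster 6 and 11.8 (9.14 to 14.97) and 62.3 (35.6 to 101) in cluster 16, the antibody-secreting cells led by Ighg2b and Jchain. Adamts1 had 42 chemoresistant UMIs in the class and was lower, not higher, after thinning. Timp3 was within 1.5-fold after thinning (0.38), with cells weighted equally (0.52) and with a class lead of 0.10 required (0.50), and Adamts9 with that lead (0.43).

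In T or NK cells 8 of 18 genes compared were higher, against 10.8% of all 10399 genes, and 1 was lower, against 14.3%. The median log2 ratio was 0.28 over the 18 genes and -0.05 over all genes. Adamts6 was at 82.3 (74.8 to 90.3) and 199 (164 to 239) CPM (1.22) and was higher in the chemoresistant cells of both clusters of the class, at 69.8 and 167 CPM in cluster 12, led by Gzma and Cd8a, and 93.2 and 264 in cluster 14, led by Areg, Tnfsf11 and Icos. Adam12 was at 34.9 (30.1 to 40.3) CPM in primary cells, with 63.99 in cluster 14, and had no UMI in the chemoresistant cells, where 3 UMIs would be 5.23 CPM, so it was at least 6.67-fold lower. Adam23, Adam8, Adamts9, Mmp25, Timp1 and Timp3 were called higher on 11, 12, 6, 10, 5 and 13 chemoresistant UMIs, and the counting intervals of the ratios for Mmp25 and Timp1 include equality. Timp2 was at 85.98 and 141 CPM (0.69). Adam8 (0.44) and Timp3 (0.54) were within 1.5-fold after thinning, Timp1 over shared clusters (0.40), and Mmp25 changed sign after thinning (-0.25) and Adam23 with classes from clusters (-0.20). In each of the other 6 classes compared, the counting interval of the ratio left out equality for every called gene.

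In each of the 5 leukocyte classes compared, the summed tumour markers and Timp2 were both higher in the chemoresistant library. Timp1 and Timp3 were called higher with them in neutrophils, B-lineage and T or NK cells but not in phagocytes or dendritic cells. Timp3 in dendritic cells was at 14.1 and 12.02 CPM. The tumour marker list summed to 583 and 929 CPM in B-lineage cells of the primary and chemoresistant library, with 19 of 20 markers detected in both and Cldn4 at 0. It summed to 405 and 958 CPM in T or NK cells (20 and 18 markers detected, Cldn4 and Krt7 at 0 in the latter), to 1446 and 2003 in neutrophils, to 315 and 544 in dendritic cells and to 327 and 603 in phagocytes. The erythroid class, which should lack it, held Timp2 at 88.3 and 626 CPM. The part of tumour transcripts in the Timp1, Timp2, Timp3, Adamts1 and Adamts9 values of leukocytes was not tested.

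Other genes of the pathway were read from 3 lists outside the rule. Of 24 regulators of activation and inhibition, 14 were compared in tumour cells, of which 2 were higher (Frmd8, and Tspan17 at 13.6 and 38.5 CPM), against 4.34% of all genes, and 2 lower (Plat and Rhbdf2), against 10.1%. Plat, tissue plasminogen activator, was at 58.2 and 25.6 CPM, and Rhbdf2, a partner of Adam17 on its way to the cell surface, at 144 and 79.6. In fibroblasts 18 were compared, with 3 higher, against 10.2% of all genes, and 9 lower, against 25.4%, the latter including Reck, a membrane inhibitor of Mmp enzymes (26.3 and 0.391 CPM).

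Membrane proteins that Adam10 or Adam17 release were compared in the same way, and 15 of 23 entered in tumour cells. Cd44, Cxcl16 and Hbegf were higher, against 4.34% of all genes, and App, Cx3cl1 and Il6ra lower, against 10.1%. Cx3cl1, a membrane chemokine, was at 43.9 and 13.7 CPM, and Cd44, the hyaluronan receptor, at 36.9 and 66.9. In phagocytes 16 entered: Areg (7.41 and 47.2 CPM), Tnf (70.4 and 134) and Trem2 (415 and 633) were higher, against 1.86% of all genes, and Il6ra was lower, against 7.16%. Tnf, which encodes tumour necrosis factor, was lower in neutrophils (403 and 109 CPM), dendritic cells (16.8 and 8.09) and T or NK cells (36.2 and 10.5). Of 14 related metalloproteinases and Adamts-like proteins, 5 were compared in tumour cells with 2 lower, Pappa (61.4 and 24.7 CPM) and Adamtsl1 (15.1 and 1.30), against 10.1% of all genes, and 6 in fibroblasts with 5 lower, against 25.4%.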

How the data were processed

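The 2 pooled 10x 3′ libraries of ID8 tumours were analysed. The deposited matrices hold UMI counts per feature and barcode, not normalized, made with Cell Ranger 8.0.1 on mm10, per the submitters' processing notes; which annotation was used is not stated there. Everything else was computed here. Cells with at least 500 UMIs, 250 genes and at most 20% mitochondrial UMIs were kept. Scrublet (Scanpy 1.11.5) scores ranked cells and the top 0.8% per 1000 cells passing were removed as doublets in both libraries (1339 and 1869 cells), because its own threshold marked 2.37% of primary cells and none in the other library. Cells were classed by mean log marker levels scaled to the 99th percentile, with a lead of 0.05 over the next class; tumour and mesothelial cells form 1 class. Leiden clusters (leidenalg 0.10.2, resolution 1, 30 components, 2000 variable genes) were computed without the 80 genes. Counts were summed per class and library and given as CPM with exact Poisson intervals, shares with Clopper-Pearson intervals. Ratios add 5 CPM and need a mean of 5 CPM and 100 cells in both libraries; the call rule was tested on simulated counts. Genes named are those called, up to 12 per direction and class, those at 20 CPM in a class, and all Timp genes, with exceptions stated. Members, lists and rules were chosen with earlier results of these data known. Promoters are RefSeq's, on GRCm38.p6, of the same family as mm10. Alternatives covered the pseudocount, filter, centring, doublets, thinning, cell weighting and class definition. The regulator list in phagocytes is not reported here.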

Additional observations from a re-analysis of the deposited data

Results flagged for a closer look

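The log2 ratios of 8 genes are listed here because each gene was called higher in 1 class or more and lower in another. The share of all genes with such calls is not given, so the 8 have no background. The difference between the classes was not tested, since each class has 1 library per group. The calls of Adamts1 in B-lineage cells, Mmp12 in dendritic cells and Adam23 in T or NK cells changed sign under an alternative (-0.32, 0.17 and -0.20). Values are log2 ratios of chemoresistant over primary levels with 5 CPM added.

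Timp2 was higher in tumour cells (0.76), phagocytes (0.69), neutrophils (0.71), dendritic cells (1.21), B-lineage cells (1.98) and T or NK cells (0.69) and lower in fibroblasts (-1.76). Timp3 was lower in tumour cells (-0.84) and higher in neutrophils (0.87), B-lineage cells (1.03) and T or NK cells (0.88). Adamts1 was lower in tumour cells (-2.40) and fibroblasts (-0.85) and higher in B-lineage cells (0.78), where the level stayed under 10 CPM.

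Mmp12 was higher in phagocytes (0.92) and lower in dendritic cells (-0.67), and Mmp8 was lower in phagocytes (-0.75) and higher in neutrophils (0.70). Adam19 was lower in fibroblasts (-2.77) and phagocytes (-0.64) and higher in neutrophils (0.66). Adam23 was lower in fibroblasts (-2.56) and dendritic cells (-0.74) and higher in T or NK cells (2.07), there on 11 UMIs. Adamts6 was lower in fibroblasts (-1.66) and higher in T or NK cells (1.22).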

How the results depend on the processing

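The counts rest on 1 pooled library per group, so counting error is the limit that can be given and animal spread is not measured; the deepest class held 76794525 UMIs and the shallowest 573324. The highest class of the 68 gene and library pairs stayed the same for 68 without doublet removal, 63 with cells weighted equally and 66 with classes from clusters. Of 802 single-gene values under alternatives, 738 stayed within counting error, 55 left it and 9 changed sign. No replicate could be left out. The alternatives chosen after seeing the data were a lead of 0.10, no cluster 15 cells, a mean over shared clusters (not possible for fibroblasts, with 0 shared clusters, and neutrophils, with 1) and no cells of clusters 22, 23 and 30. No paired analysis was possible because each group has 1 library. The cause of each change below was not tested.

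Sign changes: thinned to 1000 UMIs, Adamts3 in fibroblasts was 0.42, Mmp12 in dendritic cells 0.17, Adamts1 in B-lineage cells -0.32 and Mmp25 in T or NK cells -0.25. With cells weighted equally Mmp25 in T or NK cells was -0.53, from clusters it was -1.53 and Adam23 there -0.20, and over shared clusters Adam8 there was -0.34 and Mmp25 -1.41.

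The following counts of called genes moved by more than 1.5 times, and smaller moves are not listed. Counts under an alternative, here and above, are given without the share over all genes under that alternative, so they have no background. Each called gene that came within 1.5-fold under an alternative is named with its class above, though not under every such alternative. Adding 1 CPM gave 5 lower in phagocytes, 2 higher and 9 lower in dendritic cells and 2 lower in T or NK cells. A filter of 10 CPM gave 1 higher in fibroblasts, 1 lower in phagocytes, 3 higher in B-lineage cells and 5 higher in T or NK cells. No filter gave 2 lower in neutrophils, 2 higher in dendritic cells and 1 lower in B-lineage cells. Centring on the median gene gave 1 lower in phagocytes and 2 higher and 0 lower in dendritic cells. Scrublet's own threshold gave 1 higher in fibroblasts and 5 lower in phagocytes. With no doublets removed there were 1 higher in fibroblasts, 5 higher in phagocytes, 2 higher in dendritic cells, 1 lower in B-lineage cells and 2 lower in T or NK cells. Thinning gave 4 higher in fibroblasts, 1 higher and 5 lower in phagocytes, 1 lower in neutrophils, 3 higher in dendritic cells, 2 higher in B-lineage cells and 5 higher and 2 lower in T or NK cells. Equal cell weights gave 1 higher in tumour cells, 4 higher in fibroblasts, 1 lower in neutrophils, 3 higher in dendritic cells and 2 higher in B-lineage cells. Classes from clusters gave 1 higher in fibroblasts, 2 lower in neutrophils, 3 higher in B-lineage cells and 5 higher in T or NK cells. A lead of 0.10 gave 1 lower in neutrophils, 2 higher in dendritic cells, 2 higher in B-lineage cells and 2 lower in T or NK cells. Shared clusters gave 4 lower in tumour cells, 1 higher in phagocytes, 8 lower in dendritic cells, 3 higher in B-lineage cells and 5 higher and 2 lower in T or NK cells. Without cells of clusters 22, 23 and 30 there was 1 lower in neutrophils.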
